A study of Mus musculus with 7 samples.

Results

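Mouse lung epithelium at embryonic day 15.5 (E15.5) was compared with lung epithelium at embryonic day 13.5 (E13.5). The comparison covers 7186 of the 21121 genes listed, those with a value of at least 10 in 1 of the 2 libraries. Of these, 5657 reached that minimum at both stages, 836 only at E15.5 and 693 only at E13.5. The genes just inside were Ces1h and Nr1d1 at 10.05, and those just outside were Fam126b and Gpr137b at 9.92. Both libraries came from C57BL/6 lungs dissociated with collagenase, Dispase II and DNase I, from which live Epcam-positive cells were sorted after removal of cells with CD31, CD45, Ter119 or CD146. No mutant allele or treatment is labelled. A further 5 libraries of the same strain and sort served to follow the early differences: 2 at E18.5, 1 at postnatal day 14 (P14) and 2 at postnatal day 56 (P56). The labels give neither the sex of the animals nor how many were pooled, nor whether the paired libraries are separate animals. With 1 library at E13.5 and 1 at E15.5 these 2 libraries alone allow no test, and the calls below rest on fold alone. Each difference is a ratio with a 95% exact interval that covers counting error only, and the spread between animals is not in it.

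Between these ages the mouse lung is a tree of branching epithelial tubes. Fgf10 from the surrounding mesenchyme acts on the receptor Fgfr2 in the tube tips, where cells with Sox9 and Id2 divide, while the stalk behind them forms airways with ciliated, secretory, basal and neuroendocrine cells. The tip lineage later gives the thin alveolar type 1 cells, across which gas passes, and the alveolar type 2 cells, which make surfactant. The developing epithelium also pumps chloride and water into its lumen, which keeps the lung distended before birth.

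The values are tag counts that the authors divided by 1 factor per library, so 1 read is worth 0.236 at E13.5 and 0.359 at E15.5. The libraries held 3895740 and 2559927 reads. Where a value is written as going from a first number to a second, the first is E13.5 and the second E15.5. Epcam went from 152 to 213, the adhesion gene Cdh1 from 104 to 172, and the lung factor Nkx2-1 from 502 to 1279. Ptprc, which encodes CD45, had 0 reads at both stages, Pecam1 (CD31) went from 0.945 to 0.359, and Mcam (CD146) from 6.14 to 5.02. The summed endothelial list was 56 at E13.5 and 57 at E15.5, the immune list 17 and 11, and the neural list 26 and 18. The mesothelial list summed to 1414 and 2071, most of it Krt19 (from 1392 to 2037), which lung epithelium also expresses. Its other members over the minimum were Msln, with 0 reads at E13.5 and a value of 20.5 at E15.5, and C3, which went from 14.9 to 0.359. Wt1 was under the minimum, from 0 to 1.44. Of these lists of other cells, the mesenchymal one had the most members past 2-fold. Of 27 matched genes, 9 reached the minimum, 5 of them only at E15.5 and 1 only at E13.5. Of the 9, 6 were 2-fold higher and 2 lower, against 10.4% and 7.64% of all genes. Their median log2 difference was 2.40, against 2.74 for the alveolar type 2 list described below. The list nevertheless summed to 2662 at E13.5 and 1494 at E15.5, most of it Vim. Of the 6 higher genes, 0 were 2-fold above E13.5 in every later library, against 61.0% of all genes higher at E15.5. Among the higher members the fibrillar collagen gene Col3a1 went from 7.80 to 77.1 and Col1a1 from 4.96 to 35.9. The microfibril gene Mfap4 went from 0.473 to 25.5 and Zeb2 from 1.42 to 21.5. On the other side, Vim went from 2564 to 1193 and Tagln from 16.8 to 0.359. The fibroblast genes Postn and Mfap5 had 0 reads at both stages, and Pdgfra went from 0.473 to 0. The part of mesenchymal RNA in the differences below was not tested. Both Xist, from the inactive X, and the Y-linked gene Kdm5d were read at both stages (from 586 to 791 for Xist, from 26.5 to 7.18 for Kdm5d), so transcripts particular to each sex were read in both libraries.

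Of the 7186 genes, 746 (10.4%) were at least 2-fold higher at E15.5 and 549 (7.64%) at least 2-fold lower, on the scale of log2(value + 1). Together that is 18.0%, against 9.86% of 7086 genes between the 2 E18.5 libraries and 4.15% of 7126 between the 2 P56 libraries. At 4-fold the early share was 5.12%, with 275 genes higher (3.83%) and 93 lower (1.29%), against 1.30% and 0.210% between those replicates. A share of the calls at 2-fold is thus of a size that replicates of 1 stage also show. The whole counting interval lay past 2-fold for 473 genes higher (6.58%) and 199 lower (2.77%). The median gene barely moved, at -0.06 on the log2 scale. The minimum shapes these counts: 449 of the 746 were above it only at E15.5, and 288 of the 549 only at E13.5. A gene that passed the minimum at only 1 stage had its direction fixed, though not a 2-fold difference. The list counts below, which are of genes over the minimum, therefore describe these libraries and no more.

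**Figure D1:**
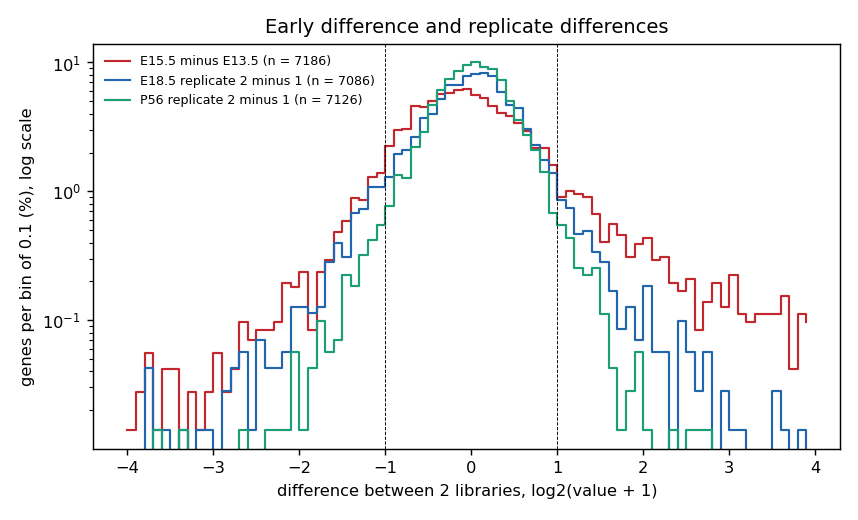
Distribution of the log2(value + 1) difference in bins of 0.1 for E15.5 against E13.5 (red, 7186 genes), the 2 E18.5 libraries (blue, 7086) and the 2 P56 libraries (green, 7126), as percent of genes on a log axis. The dashed lines mark 2-fold, and the red curve lies above the others beyond them, most of all on the right.

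The clearest higher gene was Atp6v0a4 (chromosome 6, 38048483 to 38124586, GRCm38), a subunit of the vacuolar proton pump found in specialised epithelia. It had 0 reads at E13.5 and a value of 226 at E15.5, at least 319-fold higher against a floor of 3 reads. Later it stood at 1128 and 943 in the E18.5 pair, 61.1 at P14 and 42.1 and 32.7 in the P56 pair. The chloride channel relative Clic5 (chromosome 17, 44188584 to 44280172) went from 0.945 to 333, from 4 reads to 927, 352-fold higher (95% counting interval 137 to 1294). Its relative Clic3 went from 8.03 to 519.6, 64.7-fold higher (46.1 to 93.7). Igfbp6, which binds insulin-like growth factors, had 2 reads at E13.5, and went from 0.473 to 264, 559.5-fold higher (154 to 4629). Trf, the iron carrier transferrin, went from 0.473 to 119.8, 254-fold higher (69.7 to 2102). Ass1, an enzyme of arginine synthesis, went from 22.7 to 842, 37.1-fold higher (30.3 to 46.02). Later values of Ass1 were 2978 and 3219 in the E18.5 pair, 61.9 at P14 and 91.3 and 145 in the P56 pair. The remaining leading genes were the surfactant gene Sftpc, the protease gene Ctsh, the small heat shock genes Hspb1 and Cryab, the prostaglandin synthase gene Ptgs1 and the collagen crosslinker Lox. Their ratios ran from 18.6-fold higher (15.7 to 22.1) for Cryab to 42.6-fold higher (35.7 to 51.4) for Sftpc.

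**Figure D2:**
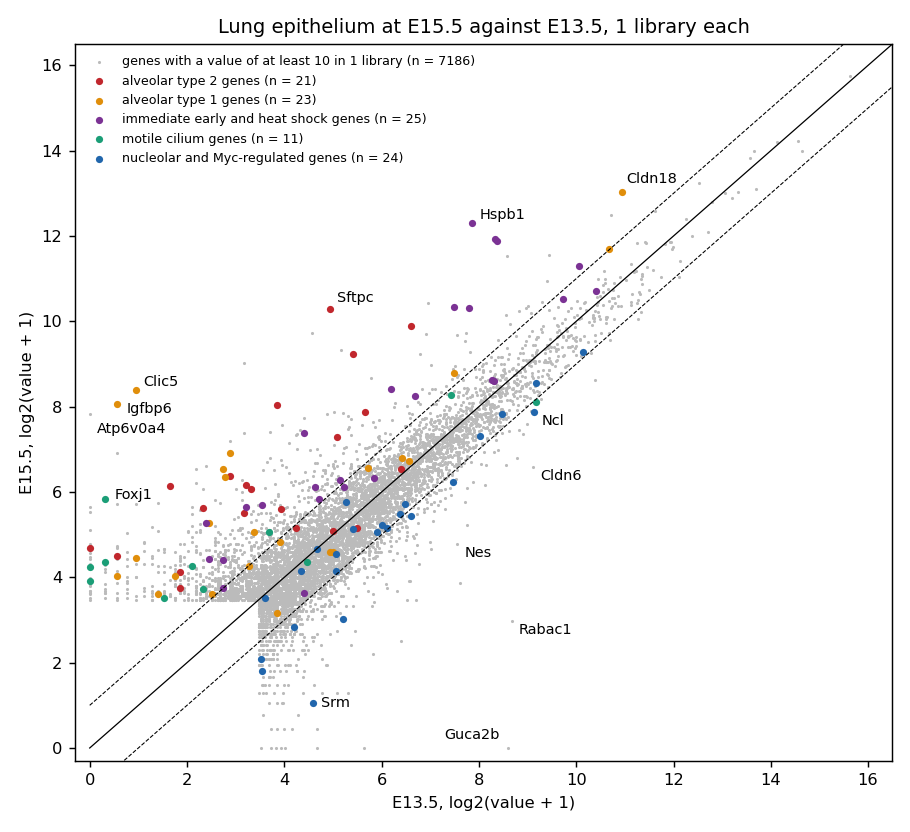
Each gene's value at E15.5 (vertical) against E13.5 (horizontal), both as log2(value + 1), for the 7186 genes, with 5 gene lists in colour; the solid line is equality and the dashed lines are 2-fold. Clic5, Igfbp6, Sftpc and Hspb1 lie far above the diagonal, and Guca2b, Rabac1 and Srm far below it.

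On the lower side the first gene was Guca2b (chromosome 4, 119656607 to 119658954), which encodes uroguanylin, a ligand of the guanylate cyclase of intestinal epithelium. Its value was 385 at E13.5, and it had 0 reads at E15.5 and in each of the 5 later libraries, at least 358-fold lower at E15.5 against the floor. Rabac1, a Rab-binding protein of the Golgi, went from 407 to 6.82, 59.7-fold lower (95% counting interval 38.1 to 99.3), but its later values were 38.1 and 41.1 in the E18.5 pair, 2484 at P14 and 79.7 and 86.5 in the P56 pair. The P14 library therefore stood above all others for Rabac1, and E15.5 below all others. Col2a1, the cartilage collagen gene, went from 195 to 13.6, and later stood at 0 and 0.754 in the E18.5 pair, 0 at P14 and 0 and 0 in the P56 pair. Nes, the intermediate filament gene of progenitor cells, went from 187 to 26.6 and Palld, an actin-bundling protein, from 103 to 10.05. Cldn6, a tight junction gene of embryonic epithelia, went from 553 to 94.4, 5.86-fold lower (5.15 to 6.68), and later stood at 11.2 and 3.01 in the E18.5 pair, 1.65 at P14 and 0.285 and 0 in the P56 pair. The other leading lower genes were Bik, a cell death gene, Camta1, Fxyd6, the neuronal tubulin Tubb4a, the receptor gene Lpar6 and the actin-binding gene Dbn1. Of these, Bik was at 215 at E13.5 and 36.6 at E15.5, then 87.4 and 76.9 in the E18.5 pair, 271 at P14 and 141 and 113 in the P56 pair, so it returned at P14 to its early level.

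Alveolar type 2 genes were the list with the largest median difference among the 28 lists with 5 or more genes over the minimum. Of 29 matched genes, 21 reached the minimum, 10 of them only at E15.5, and 17 of the 21 were 2-fold higher, none lower, against 10.4% higher over all genes. The median log2 difference of the 21 was 2.74, against -0.06 over all genes. As a share of all reads the list went from 0.0543% at E13.5 to 0.455% at E15.5, with 1.85% and 1.77% in the E18.5 pair, 5.93% at P14 and 7.84% and 8.47% in the P56 pair. In bulk libraries, more cells of a type and more RNA per cell cannot be told apart.

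Among the surfactant proteins, Sftpc (chromosome 14, 70520949 to 70524081), which encodes the hydrophobic protein C, was at 29.5 at E13.5 and 1259.8 at E15.5, then 3953 and 3365 in the E18.5 pair, 15516 at P14 and 19987 and 21448 in the P56 pair. At E15.5 it was 42.6-fold higher (95% counting interval 35.7 to 51.4) than at E13.5, and each later library was above E15.5. Sftpb, which encodes the protein B needed for the surfactant film, was at 41.6 at E13.5 and 601 at E15.5, then 4067 and 4162 in the E18.5 pair, 11751 at P14 and 16118 and 17867 in the P56 pair, and its E15.5 value was 14.4-fold higher (12.4 to 16.97) than at E13.5. Sftpa1, a collectin, went from 8.98 to 65.7. The remaining collectin gene, Sftpd, did not reach the minimum, from 0.709 to 3.23. For Sftpc, Sftpb and Sftpa1 the P56 libraries were the highest of the 7.

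The genes of surfactant processing and of the lamellar body, in which surfactant is stored, were already higher at E15.5. Napsa and Ctsh encode the proteases that trim the surfactant proteins, and Napsa went from 2.13 to 69.6, 32.7-fold higher (16.9 to 72.7). Ctsh went from 13.5 to 261, 19.4-fold higher (14.8 to 25.9). Abca3, the lipid pump of the lamellar body, went from 6.38 to 81.8, 12.8-fold higher (8.58 to 19.9). Lamp3, a membrane protein of the same organelle, went from 0.473 to 21.5, from 2 reads to 60. The phosphate carrier Slc34a2 had 0 reads at E13.5 and 24.8 at E15.5, at least 34.9-fold higher, and later 493 and 549 in the E18.5 pair, 1018 at P14 and 1148 and 1090.5 in the P56 pair. Lpcat1, which remodels phosphatidylcholine, went from 49.6 to 232, and Cebpa, a transcription factor of type 2 cells, from 2.60 to 12.6. By contrast the lipid synthesis members lay within 2-fold: Fasn went from 82.9 to 92.6, Scd1 from 17.96 to 34.8, Soat1 from 44.2 to 34.8 and the lipid carrier Fabp5 from 31.2 to 33.01. All 4 of them were more than 2-fold above E13.5 in each of the 5 later libraries. The 17 genes that were 2-fold higher at E15.5 were also 2-fold above E13.5 in each later library. Of all 746 higher genes, 61.0% were.

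Alveolar type 1 genes were higher too. Of 30 matched genes, 23 reached the minimum, 13 only at E15.5 and 1 only at E13.5. Of the 23, 15 were 2-fold higher and none lower, against 10.4% and 7.64% of all genes, with a median log2 difference of 1.67. The list held 0.452% of reads at E13.5 and 1.48% at E15.5, with 3.92% and 4.57% in the E18.5 pair, and it came back to 1.58% and 1.61% at P56. Clic5 and Igfbp6 led it. Later Clic5 stood at 2745 and 3089 in the E18.5 pair, 1498 at P14 and 227 and 238 in the P56 pair, and Igfbp6 at 4114 and 5289 in the E18.5 pair, 625 at P14 and 1010.5 and 906 in the P56 pair. Both were highest in the E18.5 libraries.

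Ager, the receptor for advanced glycation end products and a standard type 1 marker, was at 5.67 at E13.5 and 91.5 at E15.5, then 694 and 868 in the E18.5 pair, 851 at P14 and 230.5 and 212 in the P56 pair, with E15.5 16.1-fold higher (10.6 to 25.6) than E13.5. Emp2, a tetraspan membrane protein, went from 6.38 to 120.2, 18.8-fold higher (12.7 to 29.02), and Lmo7, a junction adaptor, from 5.91 to 81.1, 13.7-fold higher (9.06 to 21.7). Cav1, the coat protein of caveolae, went from 0.945 to 20.8, and Hopx, a homeodomain protein, from 4.49 to 37.7. The water channel Aqp5 was at 2.36 at E13.5 and 15.4 at E15.5, then 1931 and 2181 in the E18.5 pair, 3139.5 at P14 and 2545 and 3000.1 in the P56 pair, so most of its difference from E13.5 came after E15.5. Pdpn, another standard marker, went from 8.74 to 18.3, with a log2 difference of 0.99. The tight junction gene Cldn18 was already abundant at E13.5 and went from 1962 to 8394, 4.28-fold higher (4.17 to 4.39). Rtkn2 was not higher at this step, at 13.5 at E13.5 and 7.89 at E15.5, then 131 and 165 in the E18.5 pair, 161 at P14 and 7.11 and 5.83 in the P56 pair. Vegfa, the growth factor for capillaries, was at 13.9 at E13.5 and 27.3 at E15.5, then 408 and 369 in the E18.5 pair, 241 at P14 and 71.99 and 66.1 in the P56 pair. Of the 15 genes 2-fold higher, 11 were also 2-fold above E13.5 in every later library, against 61.0% of all 746 higher genes. The other 4 were Hopx, Akap5, Scnn1g and Krt7, each within 2-fold of E13.5 or below it in at least 1 P56 library. Krt7, a keratin of simple epithelia, was at 1634 at E13.5 and 3323 at E15.5, then 11315 and 15794 in the E18.5 pair, 7596 at P14 and 2129 and 1728 in the P56 pair.

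**Figure D3:**
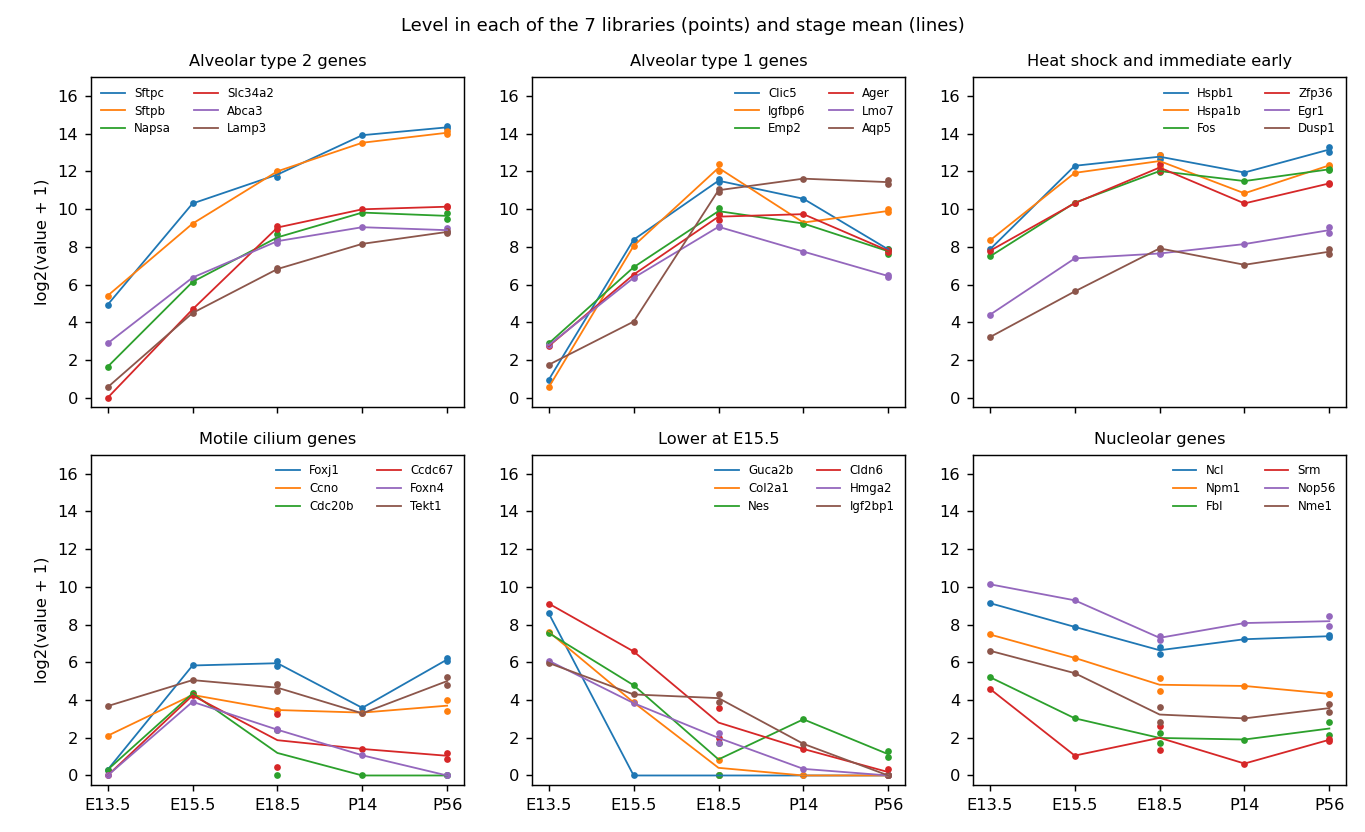
Value of single genes in each of the 7 libraries (points, as log2(value + 1)) and mean per stage (lines) for 6 groups of genes, with stages from E13.5 to P56 on the horizontal axis. Sftpc and Sftpb climb to P56, Clic5 and Igfbp6 peak at E18.5, Foxn4 and Cdc20b peak at E15.5, and Guca2b drops to 0 after E13.5.

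Genes of ion and water transport also held more higher than lower members. Of 25 matched genes, 16 reached the minimum, 4 of them only at E15.5 and 1 only at E13.5. Of the 16, 10 were 2-fold higher and 1 lower, against 10.4% and 7.64% of all genes, and the median log2 difference was 1.90. Of the genes for sodium uptake, Scnn1a, a subunit of the epithelial sodium channel, was at 12.1 at E13.5 and 168 at E15.5, then 1875 and 2260.2 in the E18.5 pair, 2144 at P14 and 1024 and 1548 in the P56 pair, 13.96-fold higher (10.4 to 19.03) at the early step. The gamma subunit gene Scnn1g went from 4.73 to 11.1, and Scnn1b had 0 reads at both stages. Atp1b1, the beta subunit of the sodium pump, went from 379 to 2937, 7.75-fold higher (7.34 to 8.18). Of the chloride channels and carriers, Slc26a9 went from 12.8 to 90.4, 7.09-fold higher (5.26 to 9.69), and Ano1, a calcium-activated channel, from 8.98 to 38.4. Cftr lay within 2-fold, from 70.7 to 81.1, and so did the loading cotransporter Slc12a2, from 52.5 to 103. Clcn2, a chloride channel, was the 1 lower member, from 13.5 to 4.66. Car2, which makes bicarbonate, went from 10.9 to 90.1, 8.29-fold higher (6.03 to 11.6), and the bicarbonate carrier Slc4a4 from 21.03 to 76.8. The potassium channel Kcnn4 was at 0.473 at E13.5 and 24.8 at E15.5, then 1.16 and 9.04 in the E18.5 pair, 3.58 at P14 and 0.854 and 2.27 in the P56 pair, so its E15.5 library stood above all 6 others. Of the 10 higher genes, 5 stayed 2-fold above E13.5 in each later library: Scnn1a, Atp1b1, Car2, Slc26a9 and Aqp5. Of all 746 higher genes, 61.0% did so, a larger share than in this list.

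Regulators of multiciliated cells, whose cilia move mucus, were read at E15.5. Of 33 matched cilium genes, 11 reached the minimum, 7 of them only at E15.5. Of the 11, 8 were 2-fold higher and 1 lower, against 10.4% and 7.64% of all genes, with a median log2 difference of 1.98. The 33 genes, Tuba1a included, held 0.0877% of reads at E13.5 and 0.0901% at E15.5. Foxj1 (chromosome 11, 116330704 to 116335399), the transcription factor of motile cilia, was at 0.236 at E13.5 and 55.98 at E15.5, then 55.1 and 67.4 in the E18.5 pair, 11.004 at P14 and 66.9 and 73.2 in the P56 pair. On 1 read at E13.5, the early ratio was 237-fold higher (95% counting interval 41.9 to 9415). The genes that act while centrioles multiply in such cells showed a different course. Ccdc67, the symbol under which the file lists the deuterosome gene Deup1, was at 0 at E13.5 and 17.9 at E15.5, then 0.385 and 8.67 in the E18.5 pair, 1.65 at P14 and 0.854 and 1.30 in the P56 pair. Cdc20b was at 0.236 at E13.5 and 19.4 at E15.5, then 4.24 and 0 in the E18.5 pair, 0 at P14 and 0 and 0 in the P56 pair, and Foxn4, a transcription factor of the same programme, at 0 at E13.5 and 13.99 at E15.5, then 4.24 and 4.52 in the E18.5 pair, 1.10 at P14 and 0 and 0 in the P56 pair. All 3 were at their highest at E15.5, where they rested on 50, 54 and 39 reads. Ccno, which acts at the same step, was at 3.31 at E13.5 and 18.3 at E15.5, then 10.01 and 10.2 in the E18.5 pair, 9.08 at P14 and 14.8 and 9.72 in the P56 pair, and stayed 2-fold above E13.5 throughout. Of the structural genes, Ccdc39 and Ccdc40, needed for the arms of the axoneme, went from 1.89 to 10.4 and from 4.02 to 12.2, and the tektin gene Tekt1 from 11.8 to 32.3. The axonemal dynein genes Dnah5 and Dnah9 were still under the minimum, with Dnah5 from 0 to 1.79 and Dnah9 from 0 to 2.51. The 1 lower gene, the tubulin gene Tuba1a from 579 to 273, is not particular to cilia.

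Factors of the Rfx family bind X-box elements in promoters of cilium genes, and GTTGCC is the core of each arm of that element. It was searched for on both strands in the 250 bases before the RefSeq starts (GRCm38.p6). Of the 8 cilium members with such a window, 2 held it, Ccno and Tekt1, against 11.8% of 27025 genes. These windows are shown because they hold the match, in capitals, 5′ to 3′ on the gene's strand.
Ccno, chr13:112987552-112987801, plus strand: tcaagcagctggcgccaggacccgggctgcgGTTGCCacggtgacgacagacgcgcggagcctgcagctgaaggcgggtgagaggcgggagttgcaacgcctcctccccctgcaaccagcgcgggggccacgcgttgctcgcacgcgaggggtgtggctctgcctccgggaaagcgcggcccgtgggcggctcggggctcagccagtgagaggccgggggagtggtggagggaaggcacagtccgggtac
Tekt1, chr11:72361883-72362132, minus strand: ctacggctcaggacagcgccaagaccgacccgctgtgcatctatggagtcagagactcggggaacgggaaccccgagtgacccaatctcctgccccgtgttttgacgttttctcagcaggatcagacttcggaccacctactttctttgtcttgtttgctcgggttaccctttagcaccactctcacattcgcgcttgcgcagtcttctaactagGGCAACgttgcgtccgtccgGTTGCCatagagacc
For Tekt1 the window shown is that of 1 of the 2 starts listed for the gene. It has its pair of matches close to that start, 35 and 15 bases before it, the first on the opposite strand. A match is letters in a window and not a bound site.

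Other airway lineages gave smaller numbers. Of 7 club and secretory genes over the minimum, 4 passed it only at E15.5. Of the 7, 4 were higher and none lower, against 10.4% and 7.64% of all genes. The higher ones were the carbonyl reductase Cbr2 from 0.236 to 17.2, the cytochrome Cyp2f2 with 0 reads at E13.5 and 11.1 at E15.5, haptoglobin (Hp) from 2.36 to 14.7 and Krt7. Scgb1a1, the main secretory product of club cells, had 0 reads at E13.5 and 1 read at E15.5. Of 7 basal cell genes, 3 of them over the minimum only at E15.5, 3 were higher, against 10.4% of all genes. They were Snai2 from 1.89 to 24.4, Jag2 from 7.33 to 33.7 and Perp from 35.9 to 119. The defining basal genes Trp63 and Krt5 had 0 reads at both stages. Of the 8 proximal airway genes, 2 were over the minimum only at E15.5. Foxj1, Cyp2f2 and the Ets factor Elf5 (from 40.2 to 207) were higher, against 10.4% of all genes, and none was lower. Elf5 is counted here by the list alone, since bulk libraries cannot place its RNA in airway or tip cells. Sox2, the stalk factor, was under the minimum, from 3.31 to 0.359. Of 6 neuroendocrine genes, 3 of them over the minimum only at E13.5, none was higher, 2 were lower and 4 lay within 2-fold, against 7.64% lower over all genes. Their median was -0.90, and the highest difference was 0.91 for the imprinted transcript Meg3. Insm1, a transcription factor of those cells, went from 23.4 to 1.79, 13.04-fold lower (5.40 to 41.04). Uchl1, which neuroendocrine cells share with other progenitors, was at 1624 at E13.5 and 851 at E15.5, then 28.1 and 45.97 in the E18.5 pair, 21.2 at P14 and 25.9 and 5.51 in the P56 pair, and the granule genes Chga and Calca were near 0, from 1.89 to 0 and from 2.13 to 1.44.

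Tip progenitor genes showed no common direction. Of 22 over the minimum, 15 lay within 2-fold, with a median of 0.23. Of the rest, 4 were higher and 3 lower, against 10.4% and 7.64% of all genes. The tip factor Sox9 was at 112 at E13.5 and 137 at E15.5, then 40.8 and 59.9 in the E18.5 pair, 53.6 at P14 and 1.71 and 0.972 in the P56 pair, so it lay within 2-fold at the early step and was near 0 at P56. Shh, the signal from epithelium to mesenchyme, went from 825 to 844, and Etv5, a target of Fgf10 signalling, from 143 to 139. Higher were Nkx2-1, 2.55-fold higher (2.41 to 2.69), Fgfr2 from 40.2 to 92.9, Bmp4 from 5.20 to 14.7 and the homeobox gene Irx3 from 223 to 617. Lower were Lin7a, a polarity scaffold, from 91.2 to 10.05, 9.08-fold lower (6.18 to 13.8), the progenitor factor Sox11 from 56.5 to 18.3, and Tgfb2 from 126 to 59.6.

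Cell division genes stood level between the early stages. Of 30 DNA replication genes, 29 lay within 2-fold, none was higher and 1, Orc6, was lower, with a median of -0.12. Of 39 mitosis genes, 37 lay within 2-fold, 1 was higher (Ncapg) and 1 lower (Cdca8), with a median of -0.02. Both lists stand against 10.4% higher and 7.64% lower over all genes. The proliferation marker Mki67 was at 67.8 at E13.5 and 98.3 at E15.5, then 0.770 and 1.51 in the E18.5 pair, 2.201 at P14 and 3.98 and 2.27 in the P56 pair, and the topoisomerase gene Top2a at 591 at E13.5 and 454 at E15.5, then 9.24 and 11.3 in the E18.5 pair, 4.68 at P14 and 9.96 and 10.7 in the P56 pair. Replication genes held 0.296% of reads at E13.5 and 0.266% at E15.5, against 0.0181% and 0.0204% at E18.5. Mitosis genes held 0.300% and 0.292% at the early stages, against 0.0189% and 0.0149% at E18.5. Of 19 cyclins and inhibitors, 14 lay within 2-fold, 3 were higher and 2 lower early, against 10.4% and 7.64% of all genes. Cdkn1a, the p21 inhibitor, went from 76.1 to 272, 3.57-fold higher (3.13 to 4.08), and the brake gene Btg2 from 23.6 to 68.5. Cyclin D1 (Ccnd1) was at 98.5 at E13.5 and 30.5 at E15.5, then 7.32 and 6.03 in the E18.5 pair, 23.7 at P14 and 58.9 and 74.2 in the P56 pair, 3.23-fold lower (2.55 to 4.13) early. E2f3, an activator of cell cycle genes, went from 38.3 to 16.51. Cdkn2c, an inhibitor of the cyclin D kinases, had 0 reads at E13.5 and 14.7 at E15.5, above all 6 other libraries.

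Genes of the nucleolus, listed together with Myc-regulated genes, had lower values as a group. Of 24 nucleolar and Myc-regulated genes, none was 2-fold higher and 8 were lower, against 7.64% of all genes and with a median of -0.85. Nucleolin (Ncl, chromosome 1, 86344719 to 86359400) was at 563 at E13.5 and 234 at E15.5, then 112 and 87.4 in the E18.5 pair, 149 at P14 and 173 and 159.7 in the P56 pair, 2.40-fold lower (95% counting interval 2.201 to 2.62) at the early step. Npm1, which encodes nucleophosmin, went from 177 to 74.3, 2.38-fold lower (2.04 to 2.79), and Fbl, the methylase of ribosomal RNA, from 36.2 to 7.18, 5.04-fold lower (3.15 to 8.48). Srm, the spermidine synthase, went from 23.2 to 1.08, on 98 and 3 reads, 21.5-fold lower (7.15 to 106). The others were Nme1, Nhp2, Pno1 and Rrp12. Nop56, the most read member, was at 1126 at E13.5 and 624 at E15.5, then 167 and 146 in the E18.5 pair, 270.2 at P14 and 238 and 351 in the P56 pair, within 2-fold early and beyond it in every later library. All 8 lower genes were 2-fold below E13.5 in each later library too, against 55.6% of all 549 lower genes. Myc itself was under the minimum, from 3.78 to 1.44, and Mycn went from 32.4 to 16.9.

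The fetal growth genes that let-7 microRNAs hold down lay within 2-fold in 8 of 10 cases, with 2 lower, against 7.64% of all genes, none higher and a median of -0.87. Hmga2, a chromatin protein of fetal cells, was at 66.9 at E13.5 and 13.3 at E15.5, then 3.85 and 2.26 in the E18.5 pair, 0.275 at P14 and 0 and 0 in the P56 pair, 5.04-fold lower (3.57 to 7.30) early. Igf2bp1, a fetal RNA-binding protein, was at 61.4 at E13.5 and 18.7 at E15.5, then 13.9 and 18.8 in the E18.5 pair, 2.201 at P14 and 0 and 0 in the P56 pair, 3.29-fold lower (2.44 to 4.53). Igf2bp3 and Hmga1 lay within 2-fold, from 326 to 165 and from 3425 to 2098. Of 23 imprinted genes, 16 lay within 2-fold, 3 were higher and 4 lower, against 10.4% and 7.64% of all genes. The growth inhibitor Grb10 went from 352 to 166 and Peg3 from 96.2 to 42.7, both lower, while H19 stood at 5921 at E13.5 and 9692 at E15.5, then 397 and 349.6 in the E18.5 pair, 7.15 at P14 and 0 and 0 in the P56 pair. Igf2 went from 292 to 393, and like H19 it was within 2-fold early and lower in every later library. Dlk1 was at 27.2 at E13.5 and 64.6 at E15.5, then 183 and 165 in the E18.5 pair, 0.550 at P14 and 0 and 0 in the P56 pair.

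**Figure D4:**
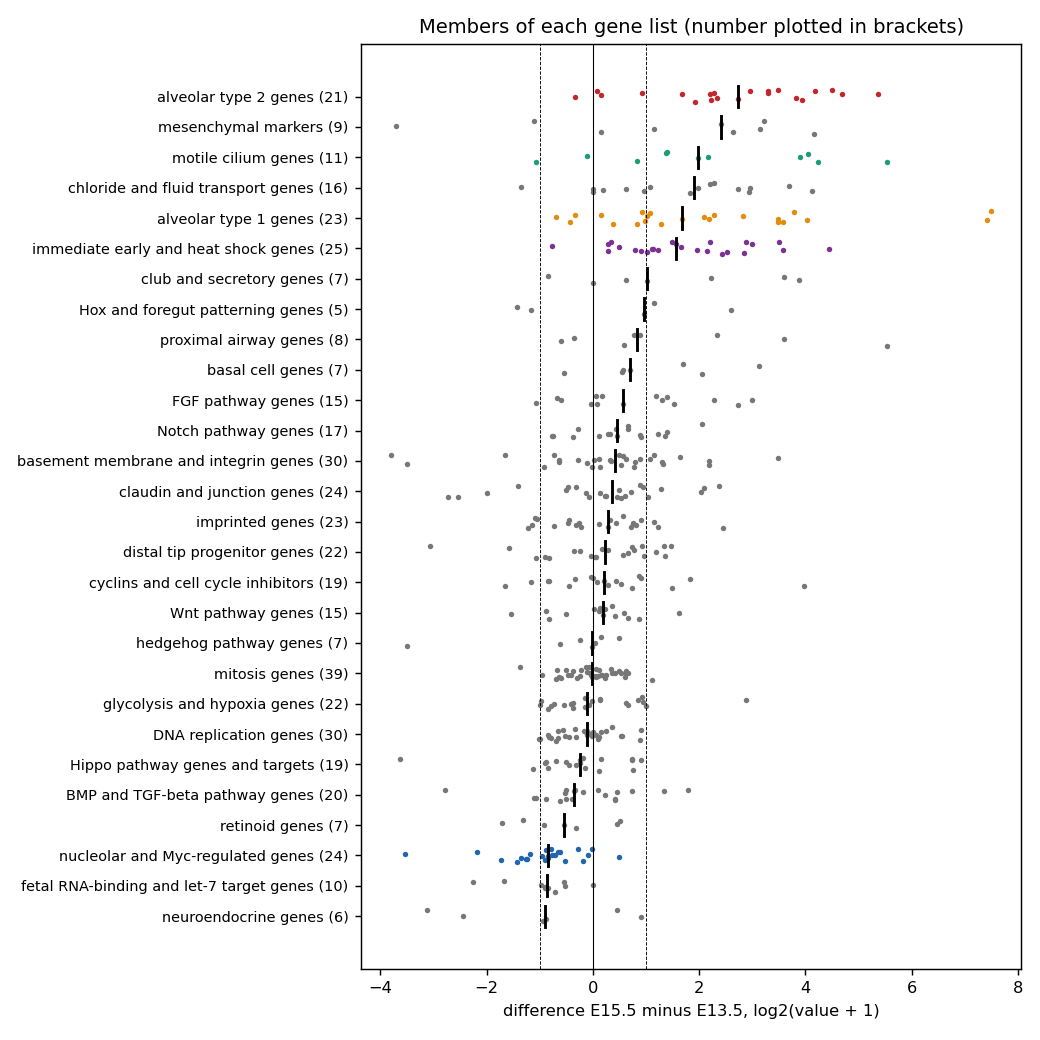
Difference E15.5 minus E13.5, as log2(value + 1), for each gene over the minimum (points) in the 28 lists with 5 or more such genes, with each list's median (black bar) and the number plotted in brackets; dashed lines mark 2-fold. Alveolar type 2 genes have the highest median (2.74) and neuroendocrine genes the lowest (-0.90), while replication and mitosis genes centre near 0.

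Heat shock and immediate early genes, which cells induce within minutes of stress or a growth signal, were higher at E15.5 as a group. Of 28 matched genes, 25 reached the minimum, 5 of them only at E15.5. Of the 25, 18 were 2-fold higher, against 10.4% of all genes, and none lower, with a median of 1.56. They held 0.611% of reads at E13.5 and 2.51% at E15.5, and between 2.05% and 4.15% in the 5 later libraries. Hspb1 (chromosome 5, 135887919 to 135889563), a small heat shock protein, was at 232 at E13.5 and 5039 at E15.5, then 7627 and 6498 in the E18.5 pair, 3934 at P14 and 8319.8 and 10100.1 in the P56 pair, with E15.5 21.8-fold higher (95% counting interval 20.4 to 23.2) than E13.5. Cryab, a small heat shock protein outside the list, went from 34.7 to 646. Hspa1a and Hspa1b, near-identical copies of the inducible Hsp70 gene whose tags may be split between them, went from 328 to 3753 and from 323 to 3884. The constitutive chaperones lay within 2-fold, Hspa8 from 1366 to 1674 and Hsp90aa1 from 316 to 386. Of the immediate early genes, Fos was at 179 at E13.5 and 1295 at E15.5, then 4232 and 4068 in the E18.5 pair, 2874 at P14 and 4544 and 4314 in the P56 pair, 7.24-fold higher (6.69 to 7.84) early. Egr1 went from 20.1 to 166, 8.29-fold higher (6.56 to 10.6), and the messenger RNA decay factor Zfp36 from 220.2 to 1273. Dusp1, a phosphatase that turns off MAP kinases, went from 8.27 to 48.8, and Jun from 102 to 302. The E13.5 library was thus the lowest of the 7 for each of Hspb1, Hspa1b, Fos, Egr1, Zfp36, Dusp1 and Jun. Of the 18 higher genes, 16 were 2-fold above E13.5 in each later library, against 61.0% of all 746 higher genes. These genes are known to respond to tissue dissociation, the labels describe 1 digestion for all stages, and the part of this response in the other higher lists was not tested.

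The heat shock factor Hsf1 binds repeats of GAA and TTC, here searched as GAANNTTC, and the serum response factor binds the CArG box. In the 250 bases before the start, GAANNTTC was in 5 of the 20 members with a window, Fosl2, Jun, Hspa1a, Hspa1b and Hspb1, against 7.73% of 27025 genes. The CArG box was in 2 of the 20, Egr2 and Zfp36, against 1.62%. The windows of 4 of these genes are shown because they hold the match, in capitals, 5′ to 3′ on the gene's strand (RefSeq, GRCm38.p6).
Hspb1, chr5:135887669-135887918, plus strand: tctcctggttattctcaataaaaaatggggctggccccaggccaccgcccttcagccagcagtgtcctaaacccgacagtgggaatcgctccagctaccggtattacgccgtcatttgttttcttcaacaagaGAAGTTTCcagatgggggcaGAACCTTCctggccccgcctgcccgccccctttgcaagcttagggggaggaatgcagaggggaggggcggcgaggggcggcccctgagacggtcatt
Hspa1b, chr17:34959239-34959488, minus strand: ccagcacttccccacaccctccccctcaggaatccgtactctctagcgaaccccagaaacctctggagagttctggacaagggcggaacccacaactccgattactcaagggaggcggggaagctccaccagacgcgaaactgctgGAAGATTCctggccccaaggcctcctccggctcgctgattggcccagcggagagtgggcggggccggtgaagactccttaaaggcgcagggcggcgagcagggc
Egr2, chr10:67537316-67537565, plus strand: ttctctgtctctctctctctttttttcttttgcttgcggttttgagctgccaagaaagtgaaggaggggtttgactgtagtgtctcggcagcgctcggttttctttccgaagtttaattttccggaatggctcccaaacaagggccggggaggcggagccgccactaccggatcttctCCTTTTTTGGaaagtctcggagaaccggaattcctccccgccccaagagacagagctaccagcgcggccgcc
Zfp36, chr7:28379229-28379478, minus strand: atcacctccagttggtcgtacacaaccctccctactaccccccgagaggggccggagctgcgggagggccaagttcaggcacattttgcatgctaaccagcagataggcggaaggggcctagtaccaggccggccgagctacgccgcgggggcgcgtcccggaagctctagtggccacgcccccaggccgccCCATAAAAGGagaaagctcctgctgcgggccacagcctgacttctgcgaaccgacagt
Hspb1 holds GAANNTTC at 117 and 97 bases before its start and Hspa1b at 104. The CArG box lies 72 bases before the start of Egr2, at 1 of the 5 starts listed for that gene, and 58 bases before that of Zfp36. Egr2 went from 4.25 to 37.7. Fosl2, which also holds GAANNTTC, went from 20.3 to 11.5, so the letters did not go with a higher value there.

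Signalling lists had median log2 differences between -0.54 for retinoid genes and 0.56 for FGF genes. In the FGF list, 7 of 15 genes were higher and 1 lower, against the same 10.4% and 7.64%: of the receptors, Fgfr2 and Fgfr3 (from 5.67 to 16.51) were higher and Fgfr1 (from 80.6 to 37.7) lower. The ligand Fgf1 went from 1.89 to 18.3 and the coreceptors Sdc4 and Sdc1 from 679 to 1958 and from 14.7 to 37.7. Egr1, an immediate early gene and the member with the largest difference, is described above, and Flrt3, a membrane partner of the receptors, went from 3.78 to 22.2. The feedback genes Dusp6, Spry1 and Spry2 lay within 2-fold, with Dusp6 from 79.4 to 118, Spry2 from 29.3 to 30.5 and Spry1 from 10.4 to 11.8. Past 2-fold in either direction were 18.0% of all genes, and the Wnt and hedgehog counts lie near that share. In the Wnt list 13 of 15 genes lay within 2-fold, among them the target Axin2 from 14.9 to 16.1. The target Sp5 was higher, going from 21.7 to 68.9, and Tcf7 lower, going from 11.3 to 3.23. Of 7 hedgehog genes 6 lay within 2-fold, among them the target Ptch1, from 31.7 to 35.5. In the BMP and TGF-beta list, 15 of 20 lay within 2-fold, 2 were higher and 3 lower, against 10.4% and 7.64% of all genes. Fstl1, a secreted BMP antagonist needed for lung development, was at 1679 at E13.5 and 5801 at E15.5, then 5567 and 5538 in the E18.5 pair, 293 at P14 and 23.6 and 35.95 in the P56 pair, so its values at E15.5 and E18.5 were far above those at P56. The receptor gene Bmpr1b went from 10.9 to 0.718, 15.1-fold lower (3.96 to 129), and the matrix anchor Ltbp1 from 55.5 to 25.1.

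Notch pathway genes lay within 2-fold in 13 of 17 cases, with 4 higher, against 10.4% of all genes, and none lower. Of the 17, 3 were over the minimum only at E15.5. The higher genes were the ligands Jag2 and Dlk1, the coactivator Maml1 from 10.6 to 28.7, and Nrarp, a feedback target, at 13.9 at E13.5 and 38.4 at E15.5, then 5.005 and 8.29 in the E18.5 pair, 6.88 at P14 and 7.68 and 10.4 in the P56 pair. The receptor genes Notch1 and Notch2 went from 8.74 to 12.2 and from 93.8 to 101, and the target Hes1 was under the minimum, from 3.31 to 5.02. Of 19 Hippo genes, 17 lay within 2-fold, including the targets Ctgf from 206 to 345 and Cyr61 from 272 to 452. Over all genes, 18.0% were past 2-fold in either direction. The target Ankrd1 was lower, from 55.8 to 3.59, 15.5-fold lower (8.30 to 32.8), and so was the kinase Lats2, from 52.9 to 23.7. Of 7 retinoid genes, 2 receptors were lower, against 7.64% of all genes, and none was higher. The receptors were Rara, from 51.3 to 15.1, and Rarb, from 30.01 to 11.5. Of 5 patterning genes, 2 were higher and 2 lower, against 10.4% and 7.64% of all genes. Higher were Hhex (from 3.07 to 23.7) and Tbx2 (from 4.96 to 12.2), and Six4 (from 21.03 to 7.18) was among the lower. Glycolysis and hypoxia genes lay within 2-fold in 21 of 22 cases, the exception being Ndrg1 from 3.54 to 32.3. This list too stands against 18.0% of all genes past 2-fold.

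The junction and basement membrane lists held both higher and lower members. Of 24 junction genes, 5 were higher and 4 lower, against 10.4% and 7.64% of all genes. Besides Cldn18, the higher ones were the scaffold Tjp3 from 1.42 to 11.5, the desmosome gene Pkp3 from 12.3 to 53.5, F11r from 110.1 to 268 and Jup from 43.2 to 89.7. The lower ones were Cldn6, Cldn23 from 88.4 to 21.5, and the cadherins Cdh2 from 19.8 to 2.15 and Cdh3 from 56.95 to 20.8. Of 30 basement membrane and integrin genes, 8 were higher and 3 lower, against 10.4% and 7.64% of all genes. The share of lower genes was near that of all genes. The laminin chain gene Lama5 went from 631 to 1404 and Lama3 from 28.6 to 61.00, whereas Lama1, the chain of early embryonic membranes, was at 32.8 at E13.5 and 1.44 at E15.5, then 0 and 0 in the E18.5 pair, 0.550 at P14 and 0 and 0 in the P56 pair, 22.9-fold lower (8.74 to 85.2) early. Of the collagen IV chains, Col4a3 went from 0.473 to 15.4 and Col4a4 from 1.65 to 11.1, while Col4a1 and Col4a2 lay within 2-fold, from 389 to 550.1 and from 519 to 802. Npnt, the integrin ligand nephronectin, went from 38.5 to 178, and the integrin gene Itgb8 from 26.5 to 1.44, 18.4-fold lower (7.005 to 68.9). Of the 4 keratin genes over the minimum, Krt7 was higher, as given above, against 10.4% of all genes. Krt8, Krt18 and Krt19 lay within 2-fold, with Krt8 from 76.3 to 72.1 and Krt18 from 86.3 to 93.3.

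Among genes over the minimum, most early differences were still present later. Of the 746 genes 2-fold higher at E15.5, 455 (61.0%) were 2-fold above E13.5 in each of the 5 later libraries, against 745 of all 7186 genes (10.4%). Of the 549 lower genes, 305 (55.6%) were 2-fold below E13.5 in each, against 1020 of all genes (14.2%). These shares use the same E13.5 library on both sides, so a chance low or high value there would pass as persistence. The majority depends on the minimum: with none, 849 of 2134 higher and 595 of 1375 lower genes persisted, which is the smaller part of each. The median log2 difference of the 746 went from 1.65 at E15.5 to 2.25 and 2.38 in the E18.5 pair and then to 1.99 in both P56 libraries. For the 549 it went from -1.33 to -2.01 and -2.09 at E18.5 and to -1.88 and -1.81 at P56. The most read persisting genes were, on the higher side, Cldn18, Atp1b1, Hspb1, Hspa1a, Hspa1b and the laminin receptor Bcam (696 at E13.5 and 2987 at E15.5, then 4994 and 6545 in the E18.5 pair, 4213 at P14 and 2528 and 2070.2 in the P56 pair). On the lower side they were Vim, Set, Cct8, Pcbp4, Tspan3 and Tuba1b. Vim was at 2564 at E13.5 and 1193 at E15.5, then 110.1 and 135 in the E18.5 pair, 138 at P14 and 44.96 and 40.5 in the P56 pair, and Tuba1b, a tubulin of dividing cells, at 1269 at E13.5 and 614 at E15.5, then 133 and 93.4 in the E18.5 pair, 179.6 at P14 and 216 and 236 in the P56 pair.

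**Figure D5:**
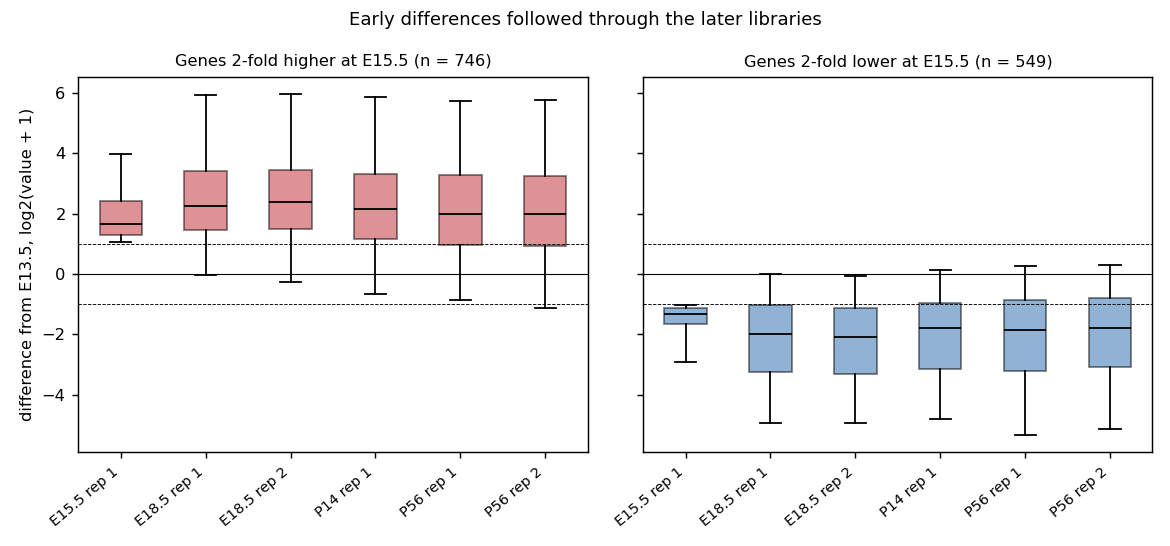
Difference from E13.5, as log2(value + 1), in each of the 6 other libraries for the 746 genes 2-fold higher (left) and the 549 genes 2-fold lower (right) at E15.5; boxes span the quartiles with the median, whiskers the 5th and 95th percentiles, and dashed lines mark 2-fold. The medians move away from 0 between E15.5 and E18.5 and stay beyond 2-fold to P56.

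Most of the other early differences had no single later course: 268 of the 746 (35.9%) and 197 of the 549 (35.9%) were past 2-fold in some later libraries and not in others, or on both sides. A smaller number reversed or returned. There were 38 genes (0.529%) at least 2-fold higher at E15.5 than in each of the other 6 libraries and 13 (0.181%) at least 2-fold lower. There were 10 genes higher at E15.5 and then 2-fold below E13.5 in every later library. Among them were the dividing-cell genes Psrc1, at 147 at E13.5 and 325 at E15.5, then 8.47 and 12.8 in the E18.5 pair, 12.9 at P14 and 3.13 and 2.27 in the P56 pair, and Ncapg, a condensin subunit, at 60.5 at E13.5 and 131 at E15.5, then 0.385 and 0 in the E18.5 pair, 0 at P14 and 1.42 and 0 in the P56 pair. Hmgn2, a nucleosome-binding protein, Pcsk6, a convertase, Adam12 and Ckap2l were others of the 10. Only C3, the central complement protein, was lower at E15.5 and higher in every later library, at 14.9 at E13.5 and 0.359 at E15.5, then 42.7 and 52.7 in the E18.5 pair, 156 at P14 and 222 and 196 in the P56 pair, which rests on 1 read at E15.5. Within 2-fold of E13.5 in every later library were 13 of the 746 (1.74%) and 46 of the 549 (8.38%), against 31.0% of all genes. The most read of the 46 were Cyp51, an enzyme of cholesterol synthesis, at 333 at E13.5 and 124.9 at E15.5, then 194 and 223 in the E18.5 pair, 211 at P14 and 364 and 313 in the P56 pair, and then Trib1 (from 197 to 97.2), Arl5a, Lap3, Dusp16 and Klf11. The 13 were less read, with Cdk14 at 49.9 at E13.5 and 129 at E15.5, then 88.9 and 67.1 in the E18.5 pair, 58.6 at P14 and 61.5 and 39.5 in the P56 pair. Endov, Gid8, Nnt, Ccdc103 and Tcaf2 followed it.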

How the data were processed

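Libraries of 3' SAGE-seq, which read a tag near the 3' end of each polyadenylated transcript, were made from amplified RNA of sorted cells and sequenced on an Ion Proton, per the labels' protocols. The submitters' processing notes name Bowtie2 2.2.5, R 3.4.0 and mm10. The counter, the annotation and the scaling are not stated in any source used here. Each deposited value is a signal, a tag count that the authors divided by 1 factor per library. Whole reads were recovered for 100% of values (tolerance 0.01 reads), which gave 3895740 reads for E13.5, 2559927 for E15.5 and between 2617913 and 3818722 for each of the other 5 libraries.

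Genes with a value of at least 10 at E13.5 or E15.5 were compared. A gene was called higher or lower where log2(value + 1) differed by at least 1 (2-fold). Intervals of ratios are exact (conditional binomial, Clopper-Pearson, 95%) and cover counting error only, since tags without molecular identifiers are not independent molecules. A gene with 0 reads was set to a floor of 3 reads in that library. No test between stages was planned, since each of the compared stages has 1 library. As an addition chosen after seeing the data, edgeR 4.0.16 (quasi-likelihood) was fitted to the recovered reads of all 7 libraries. The limma 3.58.1 fit used log2(value + 1) of the same 7 libraries, and both had Benjamini-Hochberg adjustment. There the lone E13.5 and E15.5 libraries are assumed to vary like the E18.5 and P56 pairs (2 residual degrees of freedom), and edgeR called 437 genes higher and 62 lower of 12964. DESeq2 1.42.0 gave size factors. Scripts used Python 3.11.15 and R 4.3.3 and were tested on simulated data.

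The comparison and the 36 gene lists were chosen with earlier results of these data known. Named genes are the 12 higher and 12 lower whose counting interval lay farthest from 1 with a value of at least 100, up to 5 per list by the same rule with the genes the list's name rests on, the sort markers, and 6 per class of persistence. Other genes were named to fill out their list after their values were seen. Some genes that the rule names are not reported here. Positions come from GENCODE (GRCm38) and promoter sequences from RefSeq (GRCm38.p6). If the libraries of a stage are not separate animals, their spread is technical.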

Additional observations from a re-analysis of the deposited data

How the results depend on the processing

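The counts depend on the minimum value and on the rule for a call. With a minimum of 5 there were 1157 genes higher, with a minimum of 50 there were 234 higher and 170 lower, and with none 2134 higher and 1375 lower. Requiring the whole counting interval past 2-fold left 473 and 199, and 4-fold left 275 and 93. A pseudocount of 5 left 336 lower. Fits over all 7 libraries called 437 higher and 62 lower with edgeR (1292 and 595 at an unadjusted p under 0.05) and 306 and 27 with limma. Of the genes called by edgeR, 358 higher (81.9% of its 437, 48.0% of the 746) and 58 lower (93.5% of its 62, 10.6% of the 549) were among the 2-fold genes. Persisting genes numbered 173 higher and 120 lower with a minimum of 50, 849 and 595 with none, and 214 and 74 at 4-fold. Leaving out each E18.5 and P56 library in turn (not P14, which has 1) gave 467 to 474 higher and 314 to 321 lower. Medians moved with the pseudocount and the minimum but kept their sign for the lists named next. At a pseudocount of 0.1 they were 2.40 for cilium, 1.76 for type 1 and 2.86 for type 2 genes, and at 5 they were 1.16, 1.28, 2.28, -0.77 for nucleolar, 1.55 for transport and 1.36 for immediate early and heat shock genes. A minimum of 5 gave 1.51 for cilium and 2.09 for transport genes, and a minimum of 50 gave 2.10 for type 1 and 3.29 for type 2 genes. With no minimum, type 2 genes had 2.22, type 1 1.19, cilium 0.89, nucleolar -0.78, transport 0.96 and immediate early genes 1.36. With E13.5 thinned to the depth of E15.5, cilium genes had 2.23 and type 1 genes 1.5. The median of glycolysis and hypoxia genes turned from -0.11 to 0.14 with no minimum. Scaling by TMM, DESeq2 size factors or CPM left the counts within 1.5 times and the median of all genes between -0.10 and -0.06. No paired analysis was possible because the stages compared share only replicate number 1. At this depth 3 reads correspond to a value of 0.709 at E13.5 and 1.08 at E15.5, so genes near these values cannot be placed. The cause of each move was not tested, except that a higher minimum leaves fewer genes.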

Other observations

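A small set of genes stood apart at E15.5 from the 6 other libraries, 38 genes (0.529% of 7186) at least 2-fold above each of them and 13 (0.181%) at least 2-fold below. The genes named here were chosen after their values were seen, and each rests on 1 library. The kinetochore gene Kntc1 was at 5.20 at E13.5 and 13.3 at E15.5, then 0 and 0 in the E18.5 pair, 0 at P14 and 0.285 and 0 in the P56 pair, and the histone chaperone Asf1b at 5.44 at E13.5 and 13.6 at E15.5, then 0.385 and 1.13 in the E18.5 pair, 1.65 at P14 and 1.14 and 0.648 in the P56 pair. Pkdcc, a secreted kinase of developing skeleton and lung, was at 130.4 at E13.5 and 341 at E15.5, then 55.4 and 64.8 in the E18.5 pair, 53.9 at P14 and 36.7 and 68.99 in the P56 pair. Col15a1, a basement membrane collagen, was at 4.96 at E13.5 and 54.9 at E15.5, then 15.4 and 6.03 in the E18.5 pair, 0 at P14 and 0 and 0 in the P56 pair, and the transcription factor Snai2 at 1.89 at E13.5 and 24.4 at E15.5, then 4.62 and 8.67 in the E18.5 pair, 5.23 at P14 and 0 and 1.62 in the P56 pair. Shisa8 stood at 0 at E13.5 and 24.4 at E15.5, then 0 and 4.90 in the E18.5 pair, 0.550 at P14 and 0 and 0 in the P56 pair. Plac9b, which has a close copy, was at 14.2 at E13.5 and 107 at E15.5, then 45.05 and 36.5 in the E18.5 pair, 36.9 at P14 and 42.1 and 18.1 in the P56 pair. Aire, the regulator of antigen display in thymus epithelium, was at 5.44 at E13.5 and 13.3 at E15.5, then 0 and 0 in the E18.5 pair, 0 at P14 and 0 and 0 in the P56 pair, on 23 and 37 reads at the early stages and none later.

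Among the 13 genes lowest at E15.5, Mfsd2a, the carrier of lysophosphatidylcholine, was at 14.7 at E13.5 and 1.44 at E15.5, then 23.1 and 29.8 in the E18.5 pair, 64.1 at P14 and 570.0 and 579.7 in the P56 pair, on 62 reads at E13.5 and 4 at E15.5. Wipf3 was at 22.2 at E13.5 and 9.69 at E15.5, then 23.5 and 32.8 in the E18.5 pair, 183 at P14 and 68.3 and 78.7 in the P56 pair, and Barx2, a homeobox gene, at 12.3 at E13.5 and 0 at E15.5, then 2.31 and 7.91 in the E18.5 pair, 4.95 at P14 and 4.27 and 6.15 in the P56 pair. Rabac1 and Bik, described above, were the most read of these 13 at E13.5.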
